A study of Homo sapiens with 6 samples.

Results

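The genes described here are 10 polypeptide GalNAc transferases (GALNT1, GALNT2, GALNT3, GALNT6, GALNT7, GALNT9, GALNT10, GALNT11, GALNT12 and GALNT14), read by symbol from 26485 gene symbols counted in 6 RNA-seq libraries. GALNT6 and GALNT9 were chosen by their log2 fold change and adjusted p in this very comparison, and the other 8 as members of the same enzyme family, with their values already known. The cells were A549, an established line from a human lung adenocarcinoma, that carried lentiviral dCas9-KRAB under puromycin (10 ug/ml) and rat Nkx2-1 under GFP sorting. They were selected and sorted populations, and rat Nkx2-1 was driven by the PGK promoter, which is active in most cells. The sgRNA control group (3 libraries) received a non-targeted sgRNA and the sgRNA #2 group (3 libraries) a synthetic sgRNA to the first intron of SFTPB, both by transient transfection, and both groups expressed dCas9-KRAB and Nkx2-1. In CRISPR interference (CRISPRi), dCas9 binds DNA without cutting it and the fused KRAB domain silences chromatin at the bound site. Reads assigned to genes numbered 6341459, 7068999 and 7584611 with the sgRNA control and 7058274, 6598372 and 6047554 with sgRNA #2.

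Polypeptide GalNAc transferases start mucin-type O-glycosylation in the Golgi: each moves N-acetylgalactosamine (GalNAc) from UDP-GalNAc to a serine or threonine of a secreted or membrane protein. The family members prefer different peptides, and some act mainly on peptides that already carry GalNAc. Other enzymes then extend the GalNAc into core structures that end in sialic acid or sulphate, and in the airway the mucins are the most heavily modified proteins.

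SFTPB, the surfactant protein gene that sgRNA #2 targets, was examined first as a check of the labels. With the sgRNA control its libraries read 427, 408 and 415 CPM (counts per 1000000 of a library size scaled by edgeR's TMM), and with sgRNA #2 they read 5.69, 6.31 and 8.16 CPM. Every sgRNA #2 library lay far below every control library, with a log2 fold change of −5.96 ± 0.101 (SE, n = 3 libraries a group). The epithelial keratin KRT8 stood at 1775 ± 249.9 CPM (SD, n = 3) in the control group and 1617 ± 182 CPM with sgRNA #2, and CDH1 (E-cadherin) at 238 ± 16.0 and 188 ± 5.08 CPM, whereas EPCAM was at 8.41 CPM and KRT19 at 0.330 CPM in the control group. Summed over 6 epithelial markers the libraries read 3749, 4552 and 3585 CPM against 3533, 4164 and 3384 CPM. CDH1 had a log2 fold change of −0.34 ± 0.067 (SE) and an adjusted p of 0.00728 by edgeR, and whether it bears on the results below was not tested. PTPRC and CD3E (leukocytes), CDH5 (endothelium) and COL1A2 and DCN (fibroblasts) had 0 counts in all 6 libraries. Of the other markers of these cells, CD68, a lysosomal protein abundant in macrophages, was at 65.0 CPM in the control group and 66.8 CPM with sgRNA #2, COL1A1 (collagen) was at 7.20 and 7.56 CPM, and the rest stayed at or below 1.70 CPM in each library. Summed, the 5 immune markers read 66.6, 68.4 and 62.6 CPM in the control libraries and 68.4, 66.1 and 67.1 CPM with sgRNA #2. The 6 fibroblast markers read 10.03, 7.37 and 7.49 CPM against 8.96, 10.06 and 5.997 CPM, and the 4 endothelial markers 0.478, 0.850 and 0.657 CPM against 0.285, 0.601 and 0.167 CPM. In bulk libraries of this kind, fewer cells with a transcript and less of it per cell cannot be told apart.

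GALNT6, a transferase closely related to GALNT3 that is known for its expression in breast and other carcinomas, was counted 24, 31 and 49 times in the 3 sgRNA control libraries and 0, 0 and 0 times with sgRNA #2. On the CPM scale the control libraries read 3.82, 4.39 and 6.44. All of the signal was therefore in 1 group, and the groups did not overlap. Up to 3 counts a library could lie behind a count of 0, on average 0.459 CPM in the sgRNA #2 group, so that GALNT6 was at least 10.6-fold lower there. Leaving out 1 library at a time put this bound between 8.95 and 11.8. GALNT6 passed the filter of 10 counts in 3 libraries through the control group alone, so it had to differ between the groups. These values, with an adjusted p of 9.25e-06 by edgeR's quasi-likelihood test, are those by which it was chosen and are given as a description. These floors and folds cover counting error only.

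GALNT9, described mainly from brain, was counted 14, 32 and 41 times with the sgRNA control and 10, 11 and 11 times with sgRNA #2. The levels were 2.23, 4.54 and 5.39 CPM against 1.42, 1.65 and 1.83 CPM. The sgRNA #2 libraries were close to each other and below all controls, but control replicate 1 lay nearer to them than to the other control libraries. The log2 fold change was −1.33 ± 0.341 (SE, n = 3 a group), and the adjusted p of edgeR's quasi-likelihood test that chose the gene was 0.0441. With DESeq2 the adjusted p was 0.115 and GALNT9 was not called. The call was also lost without control replicate 2 (log2 fold change −1.26), control replicate 3 (−1.07), sgRNA #2 replicate 1 (−1.23), sgRNA #2 replicate 2 (−1.34) or sgRNA #2 replicate 3 (−1.42), and was kept without control replicate 1 (−1.60). Every such value was below 0.

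A call needed a difference of 1 or more on the log2 scale, in either direction, together with an adjusted p under 0.05. Of the 10 genes 9 were tested (GALNT3 was too low), and GALNT6 and GALNT9 were the 2 that met both. Of the 13356 genes tested, 96 (0.719%) were called, 92 lower (0.689%) and 4 higher (0.0299%) with sgRNA #2. The groups did not overlap, with sgRNA #2 lower, for 4 of these 9 genes (GALNT6, GALNT9, GALNT12 and GALNT14) and for 8.83% of all tested genes. With sgRNA #2 higher, this held for 0 of the 9 and for 6.77% of all tested genes. Since the choice of the genes used this contrast, nothing is read from these counts.

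**Figure D1:**
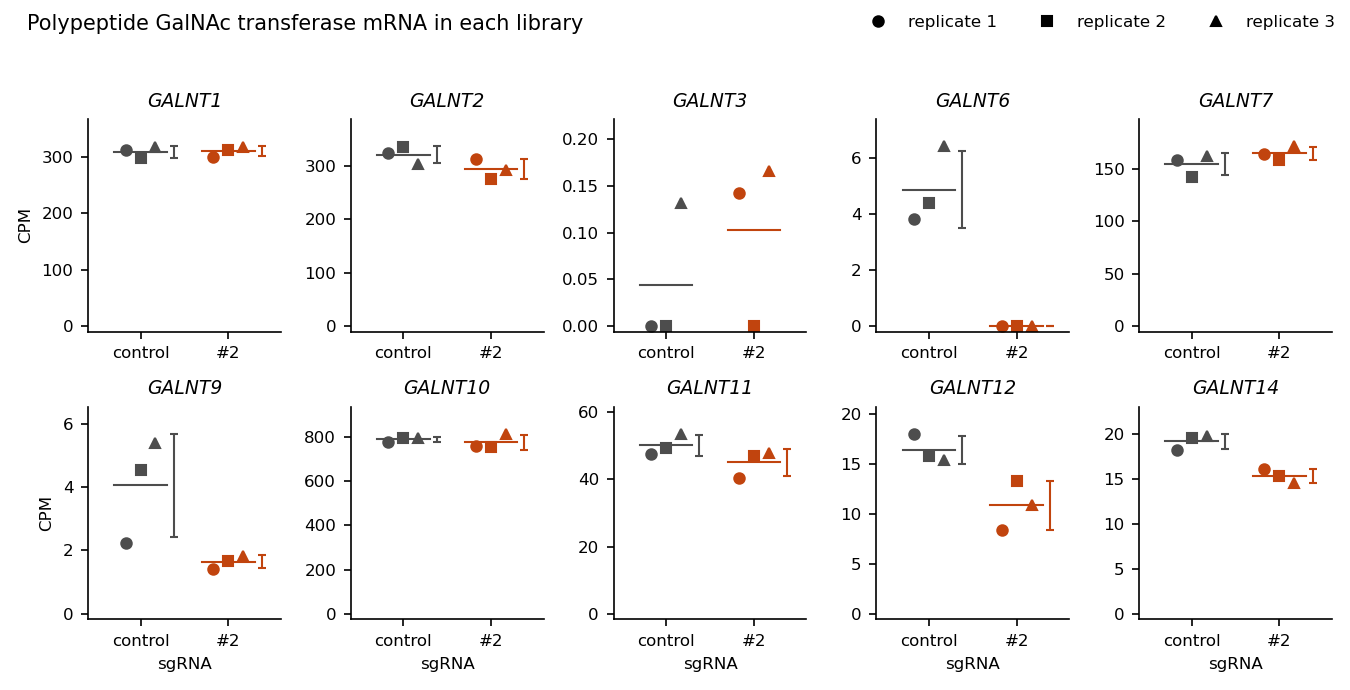
Level of each of the 10 transferases in CPM (vertical axis starting at 0) in the 3 sgRNA control (grey) and 3 sgRNA #2 (orange) libraries, with symbols for the replicate number, a line at the group mean and a bar of ± 1 SD (no bar for GALNT3). GALNT6 lies at 0 in every sgRNA #2 library and GALNT9 below all controls, whereas the groups overlap for GALNT1, GALNT2, GALNT7, GALNT10 and GALNT11.

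GALNT12 and GALNT14 were just outside the cut-offs or further from them. GALNT12, a transferase best known from the colon, stood at 18, 15.7 and 15.4 CPM in the control libraries and 8.39, 13.2 and 10.8 CPM with sgRNA #2. All sgRNA #2 libraries were lower than all controls, and the log2 fold change of −0.60 ± 0.162 (SE) did not reach the fold cut-off. Its adjusted p by edgeR was 0.0617, and 0.00025 with the replicate number as a block, 0.00477 without a count filter and 0.0261 without sgRNA #2 replicate 2, so that in the latter 3 fits the fold cut-off alone kept it from being called. With DESeq2 the adjusted p was 0.128. The fit with the block gave no gene a spread estimate of its own, so its adjusted p-values, here and below, can be too small. Leaving out any 1 of the other libraries gave edgeR values between 0.0832 and 0.348. GALNT12 was the member nearest to the cut-offs on the outer side, as GALNT9 was on the inner side. Leaving out 1 library at a time moved this log2 fold change between −0.77 and −0.43. GALNT14, which has been linked to O-glycosylation of death receptors, stood at 18.2, 19.6 and 19.7 CPM against 16.1, 15.3 and 14.5 CPM. The groups did not overlap here either, with a log2 fold change of −0.32 ± 0.121 (SE).

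The more abundant members differed little between the groups. GALNT10, which acts mainly on peptides that already carry GalNAc, stood at 777, 796 and 798 CPM in the control libraries and 758, 754 and 815 CPM with sgRNA #2. GALNT1, a broadly expressed initiating transferase, stood at 312, 297 and 317 CPM against 301, 312.5 and 318 CPM. For both genes the highest library belonged to the sgRNA #2 group, and the log2 fold changes were −0.03 ± 0.062 (SE) for GALNT10 and 0.01 ± 0.062 (SE) for GALNT1, with 95% intervals of −0.15 to 0.09 and −0.11 to 0.13. GALNT2, a broadly expressed initiating transferase like GALNT1, stood at 325, 335 and 303 CPM against 312, 276 and 292 CPM. GALNT7, which like GALNT10 prefers glycosylated peptides, stood at 158, 143 and 163 CPM against 164, 159 and 172 CPM. GALNT11, which modifies the linkers between the ligand-binding repeats of LDL receptor proteins, stood at 47.6, 49.3 and 53.6 CPM against 40.5, 46.9 and 47.8 CPM. The groups overlapped for all 3, with log2 fold changes of −0.13 ± 0.067 for GALNT2, 0.09 ± 0.069 for GALNT7 and −0.16 ± 0.092 for GALNT11 (SE). Read as pairs of the same replicate number, GALNT2 and GALNT11 were lower and GALNT7 higher with sgRNA #2 in 3 of 3 pairs, whereas the pairs of GALNT1 and GALNT10 differed in direction. The share of all tested genes with 3 pairs in the same direction was not computed, so nothing is read from this. With the replicate number as a block, edgeR's adjusted p for GALNT2 was 0.0361 in place of 0.521, given as a description like the other values of this contrast, and its difference stayed far below the fold cut-off. GALNT3, which glycosylates the hormone FGF23 and so protects it from cleavage, was counted 0, 0 and 1 times with the sgRNA control and 1, 0 and 1 times with sgRNA #2. It was too low to be tested and no fold is given.

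The levels of the transferases were then compared with each other as CPM per kilobase of exon, with the merged exon length of each gene in GENCODE release 44. GALNT10 was the highest in the control group, at 75.3 ± 1.09 CPM per kb (SD, n = 3), followed by GALNT1 at 60.2 ± 1.99, GALNT2 at 41.6 ± 2.07 and GALNT7 at 22.7 ± 1.56. GALNT10 lay above 96.9% of the tested genes on this scale. GALNT11 at 6.06 ± 0.375, GALNT12 at 5.17 ± 0.448 and GALNT14 at 4.41 ± 0.198 CPM per kb formed a middle group. GALNT6 at 0.665 ± 0.188 and GALNT9 at 0.562 ± 0.227 CPM per kb were among the lowest expressed genes tested, above 7.85% and 6.47% of them. GALNT3 was at 0.00955 CPM per kb, with counts of 0 or 1. Neighbours in this order were apart in all control libraries except GALNT6 and GALNT9, whose ranges of 0.520 to 0.877 and 0.309 to 0.748 CPM per kb overlapped. With sgRNA #2 the order was the same down to GALNT11. GALNT12 at 3.42 ± 0.762 and GALNT14 at 3.52 ± 0.182 CPM per kb could not be separated there, GALNT9 followed at 0.227 ± 0.0285 and GALNT6 was last, at 0. With the length of the canonical transcript in place of merged exons, GALNT12 and GALNT14 exchanged places in the control order, as did GALNT6 and GALNT9.

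Of 11 other symbols of the family in the files, 5 were tested and none was called by edgeR or DESeq2, with 0 at an unadjusted p under 0.05. Over all tested genes these shares were 0.719% and 11.1%, so 0 calls among 5 genes is near the background. GALNT18 was the most abundant, at 18.3 ± 0.922 CPM per kb (SD, n = 3) in the control group, between GALNT7 and GALNT11. GALNT13, known from neurons, was at 5.79 ± 0.854 CPM per kb. In CPM the libraries of GALNT18 read 68.5, 62.6 and 68.4 in the control group and 66.6, 56.3 and 63.6 with sgRNA #2, and those of GALNT13 43.2, 32.2 and 40.1 against 40.1, 34.7 and 34.6. The log2 fold changes of the 5 ranged from −0.27 (GALNT4) to 0.26 (GALNT5), with a median of −0.07 beside 0.0035 over all tested genes. GALNT16 was at 0.109 CPM per kb. GALNT15 and GALNTL6 had too few counts to be tested, at 0.156 and 0.0811 CPM per kb in the control group. GALNT8, GALNTL5, WBSCR17 (the older symbol of GALNT17) and POC1B-GALNT4 had 0 counts in all libraries. GALNT4 shares its exon with POC1B-GALNT4, so that its own counts are uncertain.

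**Figure D2:**
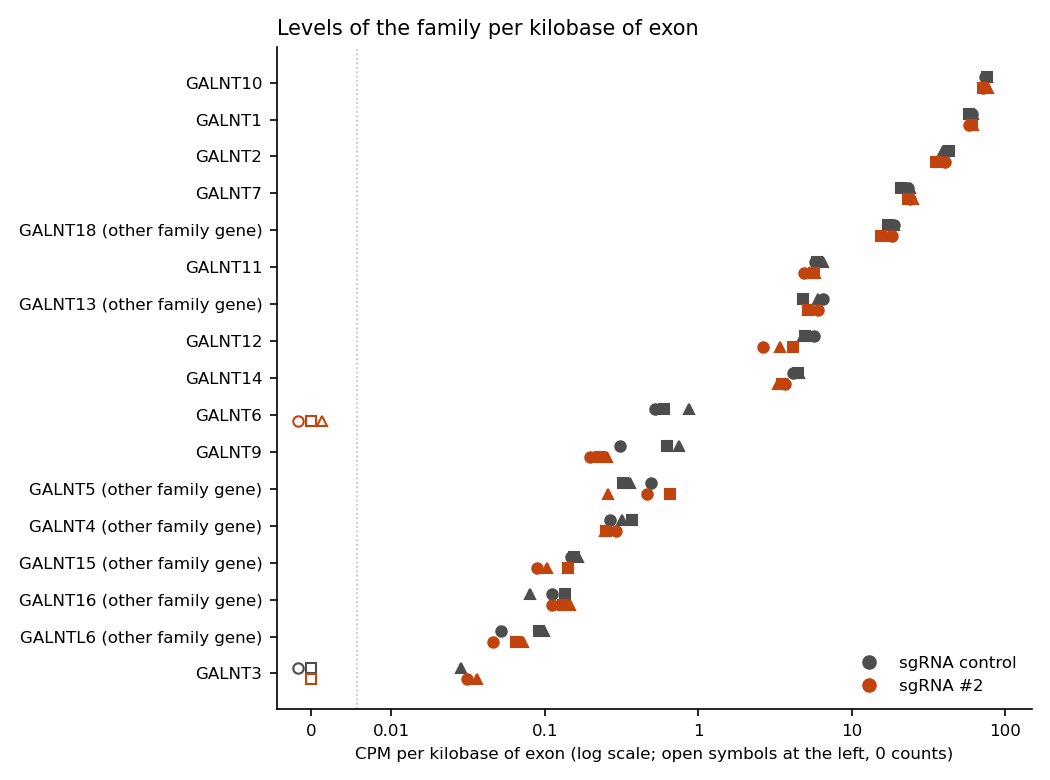
Level of each transferase with at least 1 count, in CPM per kilobase of exon on a log axis, for the 3 sgRNA control (grey) and 3 sgRNA #2 (orange) libraries (circle, square and triangle for replicates 1, 2 and 3); open symbols at the left are libraries with 0 counts. The family runs from GALNT10 at 75.3 down to GALNT3 at 0.00955 in the control group, and the sgRNA #2 libraries of GALNT6 are all at 0.

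Because GALNT6 and GALNT9 were low, they made up little of the summed level of the 10 genes. The sum was 217, 215 and 219 CPM per kb in the control libraries and 207, 206 and 216 with sgRNA #2, with means of 217 ± 1.88 and 209 ± 5.55 (SD, n = 3). The groups overlapped, although each sgRNA #2 library was lower than the control library of the same number, and the difference in means, sgRNA #2 minus control, was −3.38%. GALNT10 held 34.8 ± 0.569% of the sum in the control group and 35.3 ± 0.629% with sgRNA #2, and GALNT1 27.8 ± 0.691% and 28.9 ± 0.673%. The share of GALNT6 was 0.306 ± 0.0842% in the control group and 0% with sgRNA #2, and that of GALNT9 0.259 ± 0.104% and 0.108 ± 0.0116%. These values describe mRNA and not enzyme activity or glycans, which were not measured in these libraries.

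GALNT6 lies on chromosome 12 at chr12:51351247-51392867 and GALNT9 at chr12:132196372-132329589 (hg38), both on the minus strand. Whether sgRNA #2 has a matching sequence at either gene was examined next, since the choice of the genes did not use sequence. The site targeted at SFTPB is shown with its PAM, the 3 bases that Cas9 requires beside its target, in capitals. It is followed by the sites in GALNT9 and GALNT18, the family members with a site in the study's list of predicted off-targets, and by the sites near annotated start sites of GALNT6, GALNT9 and GALNT14 that share the longest run with the sgRNA next to an NGG PAM. In all but the first the shared run and the PAM are in capitals.
sgRNA #2 target, SFTPB: gggatgggaggggaacacccAGG
GALNT9, predicted site: aggatgggaggtgagcagCCGGG
GALNT18, predicted site: gtgatgggaagggaaagCCCAGG
GALNT6, near start site: gccgtccggtggggaaACCCGGG
GALNT9, near start site: gcccgggacagtggcCACCCCGG
GALNT14, near start site: aggcaggcatagaAACACCCTGG

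The SFTPB target (chr2:85668529-85668551, minus strand) was the only exact site in hg38. It lies in an intron of 2 of the 7 annotated SFTPB transcripts and upstream of the canonical one. The predicted GALNT9 site (chr12:132267395-132267417, plus strand) lies in intron 2 of the canonical transcript, 62183 bp from its start and 7812 bp from the nearest annotated start. It differs from the sgRNA by G1A, G12T, A15G and C18G (positions from the 5′ end, sgRNA base first). The last 2 of its 20 bases before the PAM match. The predicted GALNT18 site (chr11:11562876-11562898, minus strand), in intron 1 of the canonical transcript and 58871 bp from the nearest annotated start, differs by G2T, G10A, C16A and A17G and matches in the last 3 bases. GALNT18 had a log2 fold change of −0.10 ± 0.083 (SE) and was not called. The GALNT6 site (chr12:51391644-51391666, minus strand), 3 bp upstream of an annotated start and in an exon outside the coding sequence of 6 of 19 transcripts, matches in 4 bases next to the PAM. Of tested genes with an annotated start, 95.8% have a run of at least 4 bases within 1000 bp of one. The GALNT9 site near a start (chr12:132328906-132328928, minus strand; intron 1 of the canonical transcript) matches in 5 bases, which 76.5% reach. The longest such run among the 10 genes was 7 bases at GALNT14 (chr2:31138969-31138991, minus strand; in an intron of 2 of 15 transcripts and outside the canonical one), which 5.51% reach.

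Longer matches of the PAM-proximal bases were absent near the start sites of these genes. None of the 10 transferases, and none of the 21 family symbols, had 8 or more of these bases (GAACACCC) followed by NGG on either strand within 1000 bp of an annotated start, against 198 of 13081 tested genes (1.51%). For 10 bases (GGGAACACCC) the share over tested genes was 0.214%. No match of 8 or more bases lay anywhere within the annotated spans of GALNT6 or GALNT9. Among the 10 genes, GALNT7 had 1 such match within its span, of 9 bases. Of the other family symbols, WBSCR17 had 2 (the longest of 10 bases), GALNTL6 had 1 of 9 bases and GALNT18 had 1 of 8 bases. These letters describe the windows searched only. Binding of dCas9 was not measured in these libraries.

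The genes around GALNT6 and GALNT9 were examined as a measure that the choice of genes did not use. Of the genes whose start lies within 200 kb of that of GALNT6, 5 were tested and none was called by edgeR's quasi-likelihood test or by DESeq2. SLC4A8, a bicarbonate transporter gene whose start is 33.4 kb away on the opposite strand, was counted 33, 29 and 35 times with the sgRNA control and 28, 28 and 14 times with sgRNA #2. Its groups overlap once scaled to CPM, with a log2 fold change of −0.39 ± 0.256 (SE) and an adjusted p of 0.657 by edgeR. POU6F1 (−0.27 ± 0.232), SMAGP (−0.11 ± 0.166), DAZAP2 (0.04 ± 0.066) and SCN8A (0.06 ± 0.108) differed by less. Around GALNT9, DDX51 (0.04 ± 0.080), NOC4L (0.10 ± 0.150) and FBRSL1 (−0.05 ± 0.093) were tested and none was called by either. None of these 8 genes reached an unadjusted p under 0.05, against 11.1% of all tested genes. Within 500 kb, 10 genes around GALNT6 and 12 around GALNT9 were tested, and 0 were called by edgeR and 0 had an unadjusted p under 0.05. With 0.719% of all tested genes called, 0 calls among so few genes is near the background. Annotated exons of GALNT6 overlap SLC4A8 on the other strand and those of GALNT9 overlap a pair of antisense genes without symbols. Whether counting used strand is not given in the sources used here, so reads from such partners cannot be told apart without it.

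**Figure D3:**
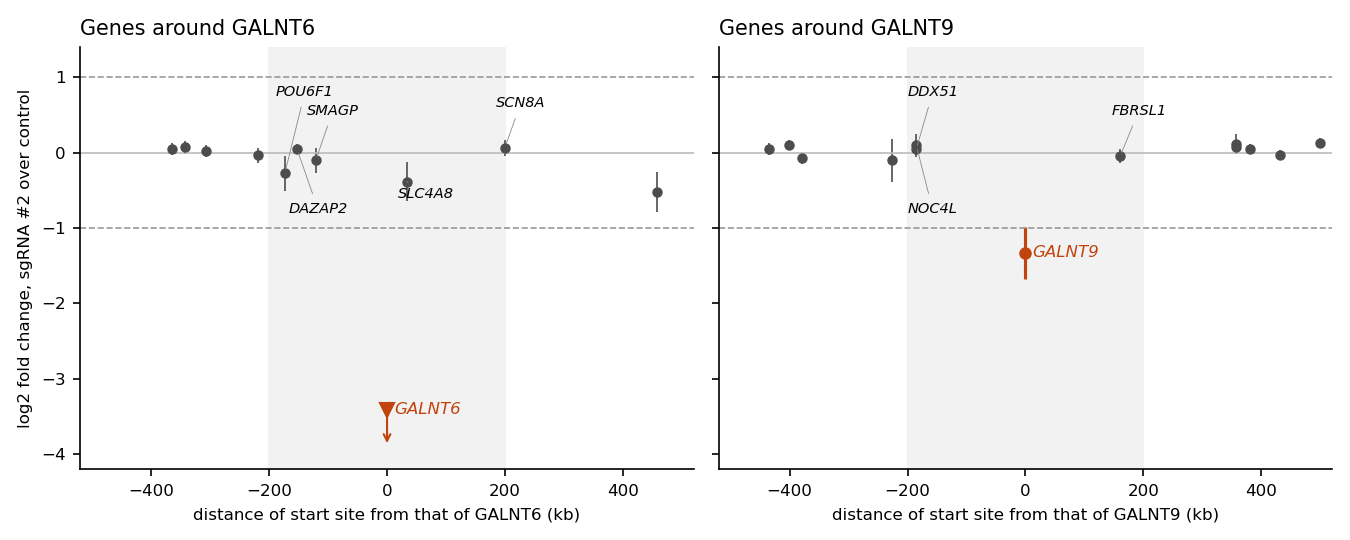
Log2 fold change with sgRNA #2 (vertical axis, bars ± 1 SE) of tested genes against the distance of their start site from that of GALNT6 (left) or GALNT9 (right) in kb, along increasing chromosome position; shading marks 200 kb, dashed lines the cut-off of 1, and the GALNT6 triangle is drawn at the 10.6-fold bound. Only GALNT6 and GALNT9, in orange, lie beyond the cut-off.

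For GALNT6 and for GALNT9 the tested genes with the most similar profiles were found by the Euclidean distance between deviations of log2 CPM (prior count 2) from the gene mean over the 6 libraries. GALNT6 had 0 counts in each sgRNA #2 library, so its log2 CPM there was set by the prior count. Which genes came closest to it therefore depends on that setting. Among the closest to GALNT6 were SLC12A4 (distance 0.609), MAGED2 (0.664), BOK (0.874) and PEAR1 (1.65). SLC12A4, a potassium-chloride cotransporter, stood at 26.8, 35.3 and 30.9 CPM in the control libraries and 1.28, 1.65 and 1.83 CPM with sgRNA #2. PEAR1, a membrane receptor of platelets and endothelium, had 78, 72 and 37 counts against 1, 0 and 1, and control replicate 1, the lowest control library of GALNT6, was its highest. Closest to GALNT9 were EPS8L3 (0.483), BIRC7 (0.546), TOX2 (0.550), ST6GALNAC3 (0.572) and MUC5AC (0.592). EPS8L3 stood at 2.87, 4.68 and 6.44 CPM against 1.85, 2.85 and 2.17 CPM, and in the control group of EPS8L3, BIRC7 and TOX2, as of GALNT9, replicate 1 was the lowest library. Since each list was chosen for likeness, no test is attached to it.

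The other genes of the O-glycan pathway were taken from lists of roles. Of 12 genes that make or carry UDP-GalNAc and its precursors, all were tested and none was called by edgeR or DESeq2, with 2 at an unadjusted p under 0.05, where all tested genes gave 0.719% called and 11.1% at that p. GNPNAT1, the most abundant of them, was at 194 ± 17.55 CPM (SD, n = 3) in the control group and 207 ± 9.92 with sgRNA #2. GFPT2 and GFPT1, the entry enzymes of hexosamine synthesis, had the log2 fold changes farthest from 0, at 0.20 ± 0.068 and 0.15 ± 0.063 (SE), with adjusted p-values of 0.179 and 0.324. With the replicate number as a block, edgeR's adjusted p-values were 0.00624 and 0.0188, and both differences stayed far below the fold cut-off. The groups did not overlap, with sgRNA #2 higher, for 2 of the 12 (GFPT1 and GFPT2) and, with sgRNA #2 lower, for 0 (6.77% and 8.83% of all tested genes). The median of the list was 0.03.

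Of 16 genes that extend or cap the GalNAc or help to do so, 14 were tested and 1 was called, B3GNT3, lower with sgRNA #2, against 0.719% of all tested genes called. At an unadjusted p under 0.05 there were 4 of the 14, against 11.1% of all tested genes. B3GNT3, which adds N-acetylglucosamine to extend core 1 chains, was counted 180, 255 and 279 times with the sgRNA control and 100, 98 and 108 times with sgRNA #2. The groups were far apart, at 33.8 ± 4.48 and 15.6 ± 2.05 CPM (SD, n = 3), with a log2 fold change of −1.12 ± 0.129 (SE) and an adjusted p of 2.72e-05 by edgeR. When a change above 2-fold was tested (glmTreat), B3GNT3 was not called. ST6GALNAC3, a sialyltransferase, had 46, 81 and 83 counts against 36, 37 and 32, with a log2 fold change of −0.90 ± 0.203 and an adjusted p of 0.0183, short of the fold cut-off. Without control replicate 1 it met both and the list had 2 calls. GCNT3, the most abundant of the list and a maker of core 2 and core 4 branches, was at 234 ± 22.7 CPM in the control group and 272 ± 19.3 with sgRNA #2 (log2 fold change 0.22 ± 0.077, adjusted p 0.199). With the replicate number as a block, edgeR's adjusted p for GCNT3 was 3.60e-05, and its difference stayed far below the fold cut-off. That fit gave GCNT3 no spread estimate of its own. C1GALT1, which forms core 1 on the GalNAc, and its chaperone C1GALT1C1 had log2 fold changes of −0.09 ± 0.087 and 0.12 ± 0.076. Of the 14, the groups did not overlap with sgRNA #2 lower for 2 and with sgRNA #2 higher for 1 (8.83% and 6.77% of all tested genes). The median over the 14 genes was −0.01.

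Of 27 known protein substrates of these enzymes, 13 were tested and 1 was called, MUC5AC, lower with sgRNA #2, against 0.719% of all tested genes called. At an unadjusted p under 0.05 there were 4 of the 13 (11.1% of all tested genes), and the groups did not overlap, with sgRNA #2 lower, for 4 (8.83% of all). With sgRNA #2 higher this held for 0 of the 13 (6.77% of all). MUC5AC, a gel-forming airway mucin, was counted 54, 150 and 117 times with the sgRNA control and 36, 46 and 34 times with sgRNA #2. Its control libraries were widely spread, at 8.60, 21.3 and 15.4 CPM, and all lay above the sgRNA #2 libraries at 5.12, 6.91 and 5.66 CPM (log2 fold change −1.37 ± 0.259, adjusted p 0.00522 by edgeR). The call of MUC5AC was lost when a change above 2-fold was tested (glmTreat). MUC5B, the other main airway gel-forming mucin, stood at 39.8, 86.3 and 56.7 CPM against 34.6, 33.2 and 29.7 CPM, with a log2 fold change of −0.91 ± 0.187 and an adjusted p of 0.010 by edgeR and 0.165 by DESeq2, and of the alternatives run for this list it was called only without control replicate 1. Mucin repeats resemble each other, and how reads with several placements were counted is not given in the sources used here. FN1 (fibronectin), the most abundant substrate, was at 2592 ± 360.3 CPM in the control group and 2850 ± 327 with sgRNA #2. The median over the 13 genes was 0.03. Control replicate 1 was the lowest control library for GALNT6, GALNT9, B3GNT3, ST6GALNAC3, MUC5AC and MUC5B. It was the highest control library for GALNT12 (18 CPM) and for the substrate MUC1 (18.2 CPM). How often it was the lowest over all tested genes was not computed. Without control replicate 1 the log2 fold change was −1.60 for GALNT9, −1.22 for B3GNT3, −1.07 for ST6GALNAC3, −1.63 for MUC5AC and −1.13 for MUC5B. The bound for GALNT6 was then 11.8-fold. Leaving out a gene's lowest control library raises its control mean, so these larger differences were fixed in advance. For GALNT12 the log2 fold change was −0.53 without control replicate 1, against −0.60 with all libraries.

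Enzymes that start other kinds of glycan, or add GalNAc to existing glycans, were taken as a further list. Of 24, 22 were tested and none was called by edgeR or DESeq2, with 3 at an unadjusted p under 0.05 (over all tested genes, 0.719% and 11.1%). OGT, which puts N-acetylglucosamine on nuclear and cytosolic proteins and was the most abundant, was at 309 ± 6.24 CPM in the control group and 326 ± 16.0 with sgRNA #2. CSGALNACT2, which adds the first GalNAc of chondroitin chains, stood at 40.3, 36.4 and 41.5 CPM in the control libraries and 27.4, 26.0 and 30.5 CPM with sgRNA #2, all sgRNA #2 libraries being lower (log2 fold change −0.50 ± 0.101, adjusted p 0.00921, short of the fold cut-off). B4GALNT3, which adds GalNAc to N-acetylglucosamine ends, had a log2 fold change of 0.45 ± 0.203 and an adjusted p of 0.396. Of the 22, the groups did not overlap with sgRNA #2 lower for 3 and with sgRNA #2 higher for 2 (8.83% and 6.77% of all tested genes). The median over the 22 genes was 0.0072.

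**Figure D4:**
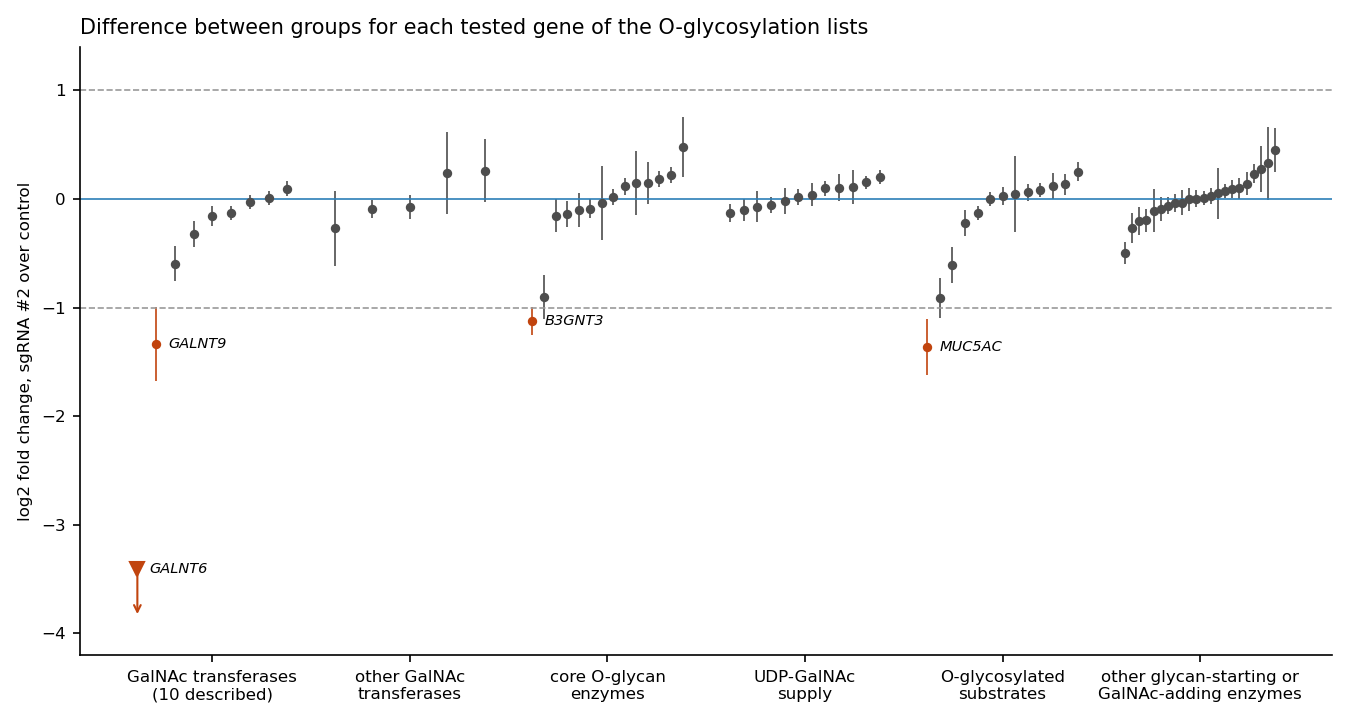
Log2 fold change with sgRNA #2 (vertical axis, bars ± 1 SE) of every tested gene of the 10 transferases and of 5 further lists of glycosylation genes (horizontal axis); orange marks genes called, dashed lines the cut-off of 1, the blue line the median of all tested genes (0.0035), and the GALNT6 triangle the 10.6-fold bound. GALNT6, GALNT9, B3GNT3 and MUC5AC are beyond −1 and no gene is beyond 1.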

How the data were processed

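Total RNA of 3 sgRNA control and 3 sgRNA #2 cultures, described by the study as biologically independent, was sequenced. The authors deposited 1 file of raw read counts per gene for each library, made per the labels with Trim Galore, FastQC, Bowtie2 2.3.3.1, SAMtools, Picard and HTSeq on hg38. Bowtie2 does not split reads across introns, and the treatment of spliced reads, the annotation and the use of strand in counting are not given in the sources used here. Rows without a gene held 19.7% to 21.1% (no feature) and 2.61% to 2.75% (ambiguous) and were left out of library sizes.

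Counts were compared with edgeR 4.0.16 in R 4.3.3 (quasi-likelihood test, TMM, two-sided, Benjamini-Hochberg over 13356 genes with at least 10 counts in 3 libraries), after the scripts were tested on simulated data. DESeq2 1.42.0, other scalings and filters, no fold cut-off, glmTreat, leaving out each library and a block for the replicate number were alternatives. The design was fixed without the block. With it, edgeR's prior degrees of freedom were infinite, against 13.0 without it. A gene's own spread between libraries therefore did not enter its test with the block, and those p-values can be too small. Same-numbered libraries deviated together (correlations 0.269, 0.287 and 0.291 across genes), although no source used here states a pairing. Other pairs gave −0.180 to −0.100, which is no separate evidence, since deviations were taken from each group's own mean. Libraries of 1 group differed by more than counting noise (chi-square per degree of freedom 2.73 to 3.61).

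CPM used TMM-scaled library sizes. Exon lengths and positions came from GENCODE 44 on hg38, for which 24523 symbols matched, 1362 of them through older symbols, and 1962 did not. Sequences were read from hg38, and the predicted GALNT9 and GALNT18 sites from the study's own list. Genes and lists were chosen with earlier results of these data known. Named are all family symbols, and of each list the genes called, the 2 with the largest change and the most abundant, as well as tested genes within 200 kb of GALNT6 and GALNT9, the 5 nearest profiles of each (1 of them is not reported here), and SFTPB. C1GALT1, C1GALT1C1 and further cell type markers were added after their values were seen.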

Additional observations from a re-analysis of the deposited data

How the results depend on the processing

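SFTPB kept its direction and its call in every alternative, with a log2 fold change between −6.11 and −5.85 when 1 library at a time was left out. The number of genes called was 96 and moved to 63 with at least 10 counts in every library, to 27 when a change above 2-fold was tested (glmTreat) and to 359 without a fold cut-off, and lay between 78 and 104 when 1 library at a time was left out. The requirement of 10 counts in every library removes GALNT6, which has 0 counts with sgRNA #2. With the replicate number as a block, which treats the libraries as pairs, 122 genes were called (114 lower and 8 higher). GALNT6 and GALNT9 were among them. The fit with the block gave no gene a spread estimate of its own. No call of a gene named here changed except that of EPS8L3, which was called with the block (adjusted p 0.00277 by edgeR) and not without it (0.105). The GALNT9 log2 fold change was −1.29 with the block. The core O-glycan enzymes and the O-glycosylated substrates, with 1 call each, had 0 with glmTreat and 2 each without control replicate 1, and between 1 and 2 over all libraries left out. The lists without a call had 0 in every alternative computed for them, and so did the genes flanking GALNT6 and GALNT9. The cause of these moves was not tested. The order of the 10 levels kept 6 of 10 places with canonical transcript lengths and all 10 without any 1 control library. The difference in the summed level, sgRNA #2 minus control, lay between −4.85% and −2.48% when 1 library at a time was left out. GALNT6 and GALNT9 had at most 49 and 41 counts in a library, and this depth limits what can be said of them. Protein identity between members was not computed.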
